A study of Mus musculus with 36 samples.

Results

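Denervation response genes are genes whose transcripts are known to change when a muscle fiber loses its nerve or its synaptic activity, and 7 of them were followed here. They are the histone deacetylase genes Hdac4 and Hdac9, the transcriptional cofactor gene Dach2, the growth arrest genes Gadd45a and Cdkn1a, the transcription factor gene Runx1 and the adhesion molecule gene Ncam1. They were chosen by name with earlier results of these data known, and not by a rule on their levels. Their rows are those whose Ensembl IDs carry these symbols. These are 7 of the 51912 genes in the count tables, and all 7 passed the filter on low counts in every comparison.

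RNA-seq was done on whole tibialis anterior (TA), a fast hindlimb muscle, and whole soleus, a slow one, from 3-month-old male C57BL/6 mice. For each of the 4 combinations of muscle and genotype, WT or ∆Ig3-MuSK, 9 libraries were sequenced. MuSK is the receptor tyrosine kinase that organizes the neuromuscular junction and is also a BMP co-receptor. ∆Ig3-MuSK mice are homozygous for a germline Musk allele from which CRISPR-Cas9 removed the exons encoding the third Ig domain, in every cell of the body and from before birth. The line had been backcrossed to C57BL/6, and no treatment or nerve injury was given to any group. The muscles were bulk tissue, so fewer cells of a type and less RNA per cell cannot be told apart.

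In innervated muscle, electrical activity keeps these programs low. When the nerve is cut, HDAC4 rises in the fiber nuclei and represses Dach2 and Hdac9, and this releases myogenin, which switches on acetylcholine receptor and atrophy genes. Dach2 and Hdac9 are thus described as repressors that fall after denervation, while Hdac4, Gadd45a, Cdkn1a, Runx1 and Ncam1 are described as rising, so the 7 are not described as moving one way together.

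Total counts ranged from 43492062 to 78660422 per library and differed between genotypes in the soleus, where the ∆Ig3-MuSK totals were larger (p = 0.00893, by a 2-sided exact permutation test, and p = 0.585 for the TA). The muscle labels held: the summed level of 8 slow fiber markers had a median of 657 CPM (reads of a gene relative to library size after TMM scaling of all 36 libraries) in WT TA and 32469 CPM in WT soleus. Musk itself, counted over the whole gene so that the deletion is not resolved, was at 4.25 ± 0.948 CPM (SD) in WT TA and 3.09 ± 0.391 in ∆Ig3-MuSK TA, and at 15.2 ± 1.82 and 11.3 ± 3.29 CPM in the WT and ∆Ig3-MuSK soleus. Its difference between genotypes did not pass the test in the TA (log2 fold change −0.46, adjusted p = 0.135) or the soleus (−0.44, adjusted p = 0.0978). On the first 2 principal components WT TA replicates 3 and 5 and ∆Ig3-MuSK soleus replicate 8 lay farthest from their groups, and the results are also given without them where that changes a value.

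The 7 genes lie on different chromosomes, in GRCm38 coordinates. Hdac4 is at chr1:91928779-92195699, Gadd45a at chr6:67035096-67037457, Ncam1 at chr9:49502136-49798925, Hdac9 at chr12:34047580-34917095 and Runx1 at chr16:92601466-92826149, all on the minus strand. Cdkn1a is at chr17:29090976-29100727 and Dach2 at chrX:113297510-113836386, both on the plus strand. Their exons sum to between 1764 bases in Gadd45a and 15813 bases in Hdac4. The libraries were not stranded, and 4 of the 7 share exon sequence with a counted gene on the opposite strand: Hdac4 shares 3536 bases with Gm26720, Ncam1 417 bases with Gm11149, Gadd45a 337 bases with E230016M11Rik and Runx1 106 bases with Gm26626. Reads from these stretches cannot be assigned to a strand.

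Promoter windows of 300 bases, 250 before and 50 after the start site, were found in RefSeq (GRCm38.p6) for 6 of the 7 genes. They are shown for Dach2 and Cdkn1a, which were higher in the soleus with no overlap between the muscles, and for Gadd45a, which was lower with no overlap. How common such a lack of overlap is among all genes was not counted. For genes with several windows the window nearest the gene's start is given, in lower case, with capitals marking every E-box (CANNTG on either strand), the motif that myogenin and MyoD can bind.
Dach2, chrX:113297260-113297559, plus strand: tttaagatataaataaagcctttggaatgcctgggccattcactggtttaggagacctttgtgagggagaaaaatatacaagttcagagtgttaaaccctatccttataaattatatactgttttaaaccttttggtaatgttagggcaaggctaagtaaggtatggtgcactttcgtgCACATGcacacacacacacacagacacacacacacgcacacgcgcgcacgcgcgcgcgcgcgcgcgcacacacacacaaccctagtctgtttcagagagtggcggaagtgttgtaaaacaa
Cdkn1a, chr17:29090729-29091028, plus strand: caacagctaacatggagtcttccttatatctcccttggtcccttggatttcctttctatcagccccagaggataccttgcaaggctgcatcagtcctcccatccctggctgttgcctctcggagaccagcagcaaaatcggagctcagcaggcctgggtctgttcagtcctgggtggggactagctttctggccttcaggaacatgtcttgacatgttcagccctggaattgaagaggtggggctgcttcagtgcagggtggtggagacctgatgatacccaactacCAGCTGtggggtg
Gadd45a, chr6:67037358-67037657, minus strand: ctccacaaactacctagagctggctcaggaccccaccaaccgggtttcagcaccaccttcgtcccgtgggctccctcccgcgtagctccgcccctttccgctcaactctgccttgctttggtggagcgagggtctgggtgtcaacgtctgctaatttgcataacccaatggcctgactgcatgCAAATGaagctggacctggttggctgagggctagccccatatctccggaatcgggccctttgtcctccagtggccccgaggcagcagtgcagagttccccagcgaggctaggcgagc
Each of these windows held 1 E-box, and 72.3% of all 32851 windows held at least 1, so a match is common. The MEF2 consensus, the motif through which class IIa histone deacetylases act, matched 0 of the 10 windows of the 6 genes and 3.19% of all windows. The RUNX core TGTGGT, searched on both strands, matched at 2 places in a Runx1 window and at 1 in the second Dach2 window, against 16.8% of all windows with a match. These matches are letters in a window and were not tied to binding.

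Levels between genes are compared per kb of exon. In WT TA, Gadd45a was the most abundant of the 7, at 14.4 ± 1.32 CPM per kb, followed by Cdkn1a at 2.92 ± 0.806 and Hdac4 at 2.06 ± 0.303. In WT soleus the order changed at the top, with Cdkn1a at 6.81 ± 1.33 CPM per kb above Gadd45a at 4.81 ± 0.887, and Hdac4 at 1.84 ± 0.199 close to Ncam1 at 1.79 ± 0.447. Runx1 was the lowest in both muscles of WT, at 0.188 ± 0.0870 and 0.306 ± 0.0795 CPM per kb.

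**Figure D1:**
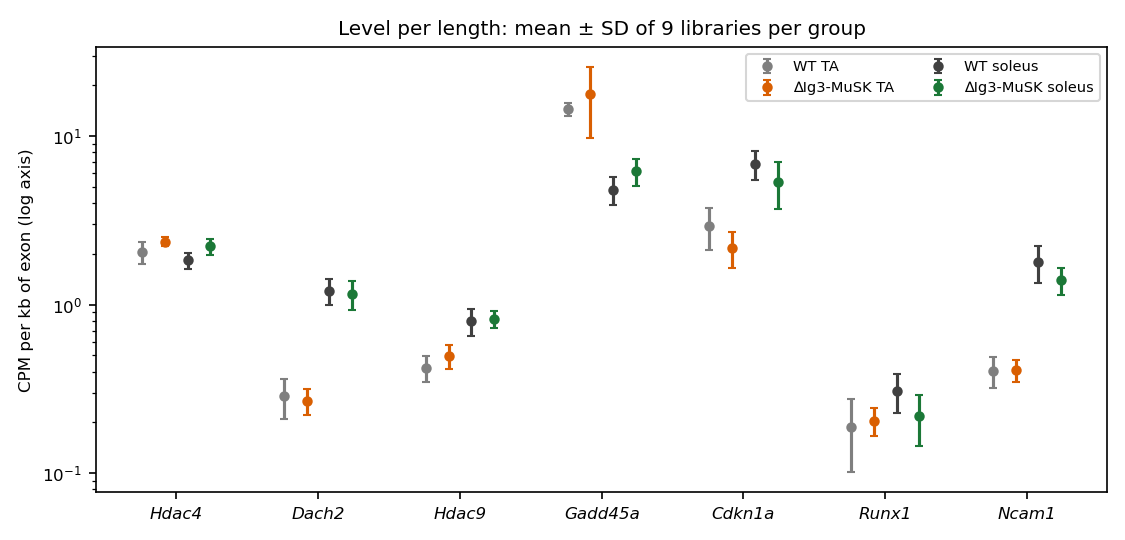
Mean level of each gene per kb of exon in the 4 groups, on a log axis, with the SD of 9 libraries. Gadd45a is the highest in both TA groups and Cdkn1a and Gadd45a are the highest in both soleus groups, while Runx1 is lowest in WT.

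Ncam1, Dach2, Cdkn1a, Hdac9 and Runx1 were higher in WT soleus than in WT TA, Gadd45a was lower, and Hdac4 did not pass the test. That made 6 of 7 genes called at an adjusted p under 0.05 and at least 1.2-fold, 5 of them higher in the soleus and 1 lower, where 57.5% of the 20841 genes tested were called, 30.2% higher in the soleus and 27.3% lower. In ∆Ig3-MuSK mice 5 of 7 were called, 4 of them higher in the soleus and 1 lower, against 56.1% of all genes, 28.5% higher and 27.6% lower. Most genes thus differed between these muscles, and whether the share among the 7 departs from that of all genes was not tested. The share of all genes whose TA and soleus libraries do not overlap was not counted. A lack of overlap is therefore not shown to be particular to any of the 7.

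The order of the group means differed from gene to gene. For Dach2 and Cdkn1a it was WT soleus, ∆Ig3-MuSK soleus, WT TA and ∆Ig3-MuSK TA, and for Ncam1 and Runx1 the last 2 places were exchanged. For Hdac9 the ∆Ig3-MuSK mean was the higher in each muscle, with the soleus above the TA, and for Gadd45a the ∆Ig3-MuSK mean was also the higher, with the TA above the soleus. Neighbours of the same muscle overlapped for every gene.

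**Figure D2:**
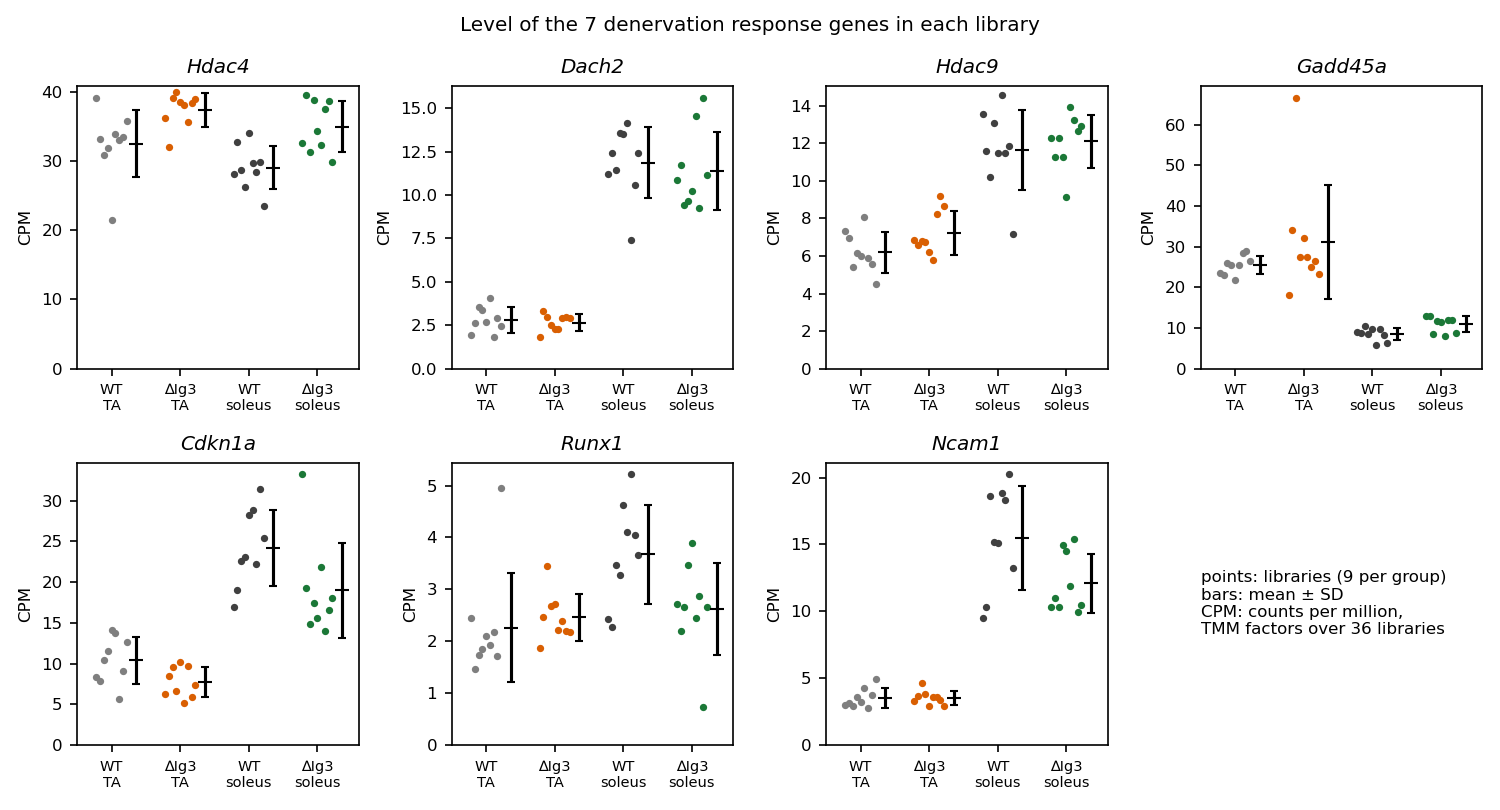
Level of each of the 7 genes in every library, in CPM from 0, with 9 points per group and the mean ± SD beside them. For Ncam1, Dach2, Cdkn1a and Gadd45a the TA and soleus points do not overlap within a genotype, while the WT and ∆Ig3-MuSK points of a muscle overlap for every gene. The share of all genes without overlap between the muscles was not counted.

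Hdac4 encodes the class IIa histone deacetylase that carries the loss of nerve activity to the nucleus. Its levels ran from 21.4 to 39.2 CPM in WT TA (median 33.2) and from 23.4 to 34.0 in WT soleus (median 28.7). In the ∆Ig3-MuSK mice they ran from 32.1 to 39.9 CPM in the TA (median 38.4) and from 29.8 to 39.5 in the soleus (median 34.4). The order of the group means was ∆Ig3-MuSK TA (37.4 ± 2.43), ∆Ig3-MuSK soleus (34.99 ± 3.70), WT TA (32.5 ± 4.80) and WT soleus (29.0 ± 3.15), and all neighbours in that order overlapped. The soleus was at 0.893-fold the TA level in WT (log2 fold change −0.16 ± 0.08 SE, adjusted p = 0.0558) and at 0.935-fold in ∆Ig3-MuSK (−0.10 ± 0.08, adjusted p = 0.261). Without the 3 libraries that stood apart the WT difference was −0.25 (adjusted p = 0.000636), still under 1.2-fold. WT TA replicate 5, at 21.4 CPM, was the lowest library and the next was at 30.8.

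Dach2, whose product helps repress myogenin in innervated muscle, was expressed mainly in the soleus. Its level was 1.79 to 4.04 CPM in WT TA (median 2.68) and 7.43 to 14.1 in WT soleus (median 12.4). In ∆Ig3-MuSK it was 1.83 to 3.34 CPM in the TA (median 2.89) and 9.26 to 15.6 in the soleus (median 10.9). Every soleus library was above every TA library of its genotype. The soleus exceeded the TA by 4.21-fold in WT (log2 fold change 2.07 ± 0.14, adjusted p = 4.67e-16) and by 4.29-fold in ∆Ig3-MuSK (2.10 ± 0.14, adjusted p = 3.62e-16). Between genotypes of a muscle the means lay close, 2.81 ± 0.745 against 2.65 ± 0.472 CPM in the TA and 11.9 ± 2.04 against 11.4 ± 2.26 in the soleus.

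Hdac9, whose short product is another repressor acting with MEF2, was also higher in the soleus. It ran from 4.51 to 8.10 CPM in WT TA (median 5.99) and from 7.17 to 14.6 in WT soleus (median 11.6). In ∆Ig3-MuSK the range was 5.81 to 9.20 CPM in the TA (median 6.81) and 9.13 to 13.9 in the soleus (median 12.3). In each genotype 8 of 9 soleus libraries lay above the highest TA library, so the groups overlapped by 1 soleus library. The difference was 1.88-fold in WT (log2 fold change 0.91 ± 0.11, adjusted p = 2.18e-09) and 1.67-fold in ∆Ig3-MuSK (0.74 ± 0.11, adjusted p = 1.47e-07).

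Gadd45a encodes a stress and DNA damage protein that is a target of the HDAC4 and ATF4 programs in denervated muscle. It went the other way between the muscles, at 21.9 to 28.9 CPM in WT TA (median 25.5) and 5.78 to 10.5 in WT soleus (median 8.74). In ∆Ig3-MuSK it was at 18.2 to 66.5 CPM in the TA (median 27.4) and 7.99 to 13.1 in the soleus (median 11.7). Every soleus library was below every TA library of its genotype. The soleus was 3.00-fold lower in WT (log2 fold change −1.59 ± 0.16, adjusted p = 3.01e-11) and 2.85-fold lower in ∆Ig3-MuSK (−1.51 ± 0.16, adjusted p = 8.8e-11). E230016M11Rik, which shares exon bases with it on the opposite strand, had a median of 809.5 counts in the TA and 202.5 in the soleus.

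Cdkn1a encodes p21, an inhibitor of cyclin-dependent kinases. It was at 5.71 to 14.1 CPM in WT TA (median 10.4) and 17.0 to 31.4 in WT soleus (median 23.0). In ∆Ig3-MuSK it was at 5.18 to 10.2 CPM in the TA (median 7.42) and 14.0 to 33.3 in the soleus (median 17.4). The muscles did not overlap in either genotype. The soleus was 2.33-fold higher in WT (log2 fold change 1.22 ± 0.16, adjusted p = 2.57e-08) and 2.47-fold higher in ∆Ig3-MuSK (1.30 ± 0.16, adjusted p = 8.18e-09).

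Runx1 encodes a transcription factor that is nearly silent in innervated fibers and is induced on denervation. Its level was 1.46 to 4.94 CPM in WT TA (median 1.92) and 2.27 to 5.22 in WT soleus (median 3.67). In ∆Ig3-MuSK it was 1.88 to 3.45 CPM in the TA (median 2.38) and 0.723 to 3.90 in the soleus (median 2.66). The highest WT TA value came from replicate 9, and the next in that group was 2.45. The soleus exceeded the TA in WT (1.62-fold, log2 fold change 0.69 ± 0.20, adjusted p = 0.00315) but the difference did not pass in ∆Ig3-MuSK (1.07-fold, 0.10 ± 0.21, adjusted p = 0.688). The gap between these differences is the interaction given below with the genotypes. These counts are low, at 32 to 367 per library.

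Ncam1 encodes the neural cell adhesion molecule, which returns to the surface of the whole fiber after denervation and is also made by Schwann cells and satellite cells. It ran from 2.73 to 4.97 CPM in WT TA (median 3.22) and from 9.48 to 20.2 in WT soleus (median 15.2). In ∆Ig3-MuSK it ran from 2.91 to 4.62 CPM in the TA (median 3.57) and from 9.97 to 15.4 in the soleus (median 10.97). The muscles did not overlap in either genotype. The soleus was 4.40-fold higher in WT (log2 fold change 2.14 ± 0.13, adjusted p = 1.04e-16) and 3.42-fold higher in ∆Ig3-MuSK (1.77 ± 0.13, adjusted p = 1.96e-14). The summed level of 10 Schwann cell markers was 64.1 to 93.9 CPM in WT TA and 74.4 to 102 in WT soleus, and that of 6 satellite cell markers 22.6 to 35.3 and 15.8 to 22.3 CPM, none of them at 0 in all libraries of a group. The part of these cells in the Ncam1 difference was not tested.

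**Figure D3:**
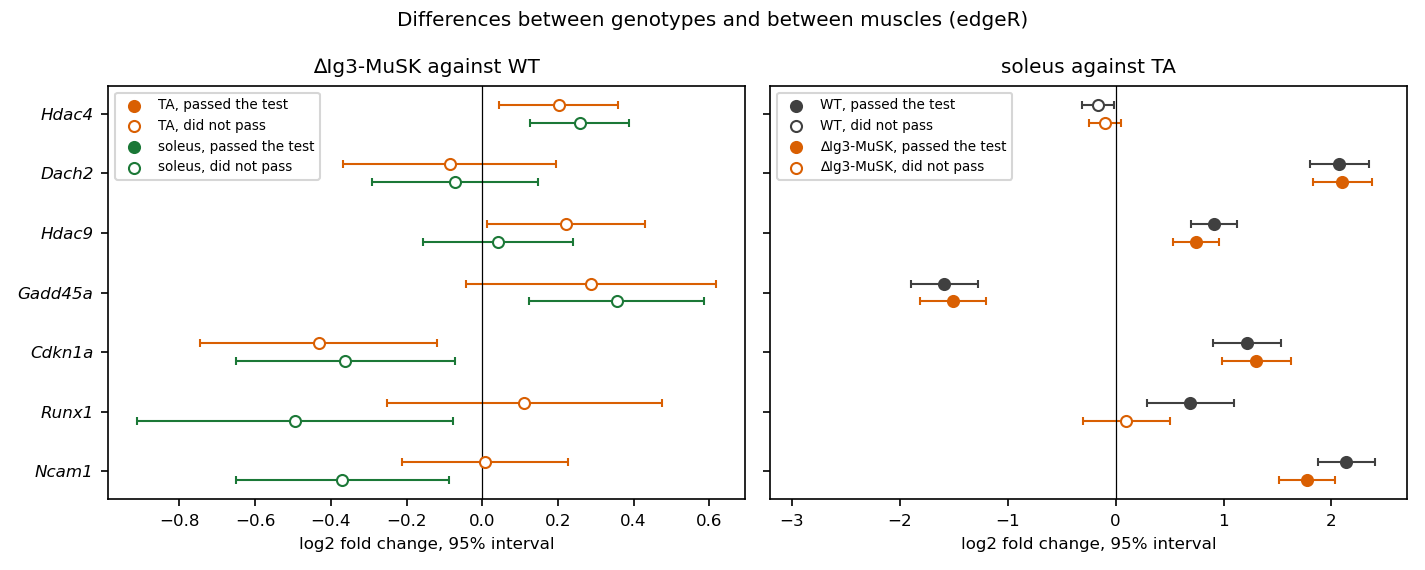
Log2 fold changes with 95% intervals for ∆Ig3-MuSK against WT in each muscle (left) and for soleus against TA in each genotype (right), with filled points where the test was passed. No point is filled on the left, while 6 WT and 5 ∆Ig3-MuSK points are filled on the right.

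Between genotypes, none of the 7 genes passed the test in the TA or the soleus. In the TA 0 of 7 were called, against 3 of 20075 genes tested (0.0149%), and 2 had an unadjusted p under 0.05, Hdac4 with an estimate above 0 and Cdkn1a below, in a muscle where 24.1% of all genes did. DESeq2 and limma-voom with sample quality weights also called 0 of 7, where they called 225 and 150 of the 20075 genes. In the soleus 0 of 7 were called, against 185 of 19439 genes (0.952%). There 5 of 7 had an unadjusted p under 0.05, where 18.5% of all genes did. The estimates were above 0 for 2 of them, Hdac4 and Gadd45a (8.48% of all genes), and below 0 for 3, Ncam1, Runx1 and Cdkn1a (10.1% of all genes). With the 1.2-fold minimum, DESeq2 called 0 of 7 in the soleus, and limma-voom with sample quality weights called 1, Cdkn1a. Of the 19439 genes they called 486 and 653. Hdac4 had an adjusted p under 0.05 in both and missed the fold minimum. The estimates of the 5 genes described as rising on denervation did not share a direction. Over the 7, the median log2 fold change was 0.11 for the TA, beside −0.00316 for all genes tested, and −0.07 for the soleus, beside −0.00170.

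Hdac4 had the smallest p of the 7 in the soleus. The ∆Ig3-MuSK level was 1.195-fold the WT level (log2 fold change 0.26 ± 0.07, 95% interval 0.13 to 0.39, adjusted p = 0.058). All 9 ∆Ig3-MuSK libraries lay above the WT median and 5 lay above the highest WT library. In the TA it was 1.15-fold the WT level (0.20 ± 0.08, 95% interval 0.05 to 0.36, adjusted p = 0.167), with 8 of 9 above the WT median. The WT TA group holds the low replicate 5 named above. The TA value was 0.14 to 0.24 with a library left out (adjusted p = 0.109 to 0.292). Over the other alternatives it was 0.13 to 0.22 (adjusted p = 0.0823 to 0.4). Without WT soleus replicate 2 or ∆Ig3-MuSK soleus replicate 9 the soleus difference passed (0.28 each, adjusted p = 0.0356 and 0.0397), and it also passed with upper-quartile factors (0.26, adjusted p = 0.0494). The adjusted p was also under 0.05 with DESeq2 (0.26, adjusted p = 0.0161), limma-voom with sample quality weights (0.23, adjusted p = 0.0492) and the replicate number as a block (0.26, adjusted p = 0.0253), where the difference stayed under the 1.2-fold minimum. For the soleus, the range of the adjusted p over the alternatives other than left-out libraries was 0.0161 to 0.0888. With a library left out it was 0.0356 to 0.108, and 16 of 18 such fits did not pass, as in the main fit. The share of all genes called in the 2 that passed is not given, so their pass is not shown to be particular to Hdac4.

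The 2 genes that HDAC4 is described as repressing had estimates nearer 0 in the soleus. Hdac9 was at 1.17-fold the WT level in the ∆Ig3-MuSK TA (log2 fold change 0.22 ± 0.11, adjusted p = 0.208) and at 1.03-fold in the soleus (0.04 ± 0.10, adjusted p = 0.862). Dach2 was at 0.942-fold in the TA (−0.09 ± 0.14, 95% interval −0.37 to 0.20, adjusted p = 0.724) and at 0.951-fold in the soleus (−0.07 ± 0.11, 95% interval −0.29 to 0.15, adjusted p = 0.774). These intervals leave room for changes of Dach2 of either sign.

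Gadd45a was at 1.28-fold the WT level in the ∆Ig3-MuSK soleus (log2 fold change 0.36 ± 0.12, adjusted p = 0.12), where 6 of 9 libraries lay above the highest WT library. In the TA the ratio was 1.22 (0.29 ± 0.17, adjusted p = 0.283) and it rested on replicate 3 of the ∆Ig3-MuSK TA, at 66.5 CPM. Without that library the log2 fold change was 0.07 (adjusted p = 0.644). The soleus value passed in the fit with the replicate number as a block (0.36, adjusted p = 0.0391), although the numbers were not found to pair the libraries.

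Cdkn1a was at 0.741-fold the WT level in the ∆Ig3-MuSK TA (log2 fold change −0.43 ± 0.16, adjusted p = 0.163), with all 9 libraries below the WT median. In the soleus it was at 0.778-fold (−0.36 ± 0.15, adjusted p = 0.193), with 8 of 9 below the WT median. The exception was replicate 1, at 33.3 CPM, above every WT soleus library. Without that library the soleus difference was −0.51 (adjusted p = 0.0521).

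For Ncam1 and Runx1 the soleus differences did not pass the test. In the ∆Ig3-MuSK soleus Ncam1 was at 0.774-fold the WT level (log2 fold change −0.37 ± 0.14, adjusted p = 0.171) and Runx1 at 0.710-fold (−0.49 ± 0.21, adjusted p = 0.218), each with 8 of 9 libraries below the WT median. ∆Ig3-MuSK soleus replicate 8 had the lowest Runx1 level, 0.723 CPM, and without it the differences were −0.33 (adjusted p = 0.246) and −0.37 (adjusted p = 0.225). In the TA the log2 fold changes were 0.01 ± 0.11 (adjusted p = 0.975) for Ncam1 and 0.11 ± 0.19 (adjusted p = 0.722) for Runx1. Without WT TA replicate 9 the TA value of Runx1 was 0.35 (adjusted p = 0.098).

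Markers of other cells were read beside these soleus values. The summed level of 6 fibroblast markers was 591 to 1771 CPM in WT soleus and 338 to 926 in ∆Ig3-MuSK soleus, with 8 of 9 libraries below the WT median (1.47-fold lower in mean, exact permutation test, 2-sided, p = 0.0193, Benjamini-Hochberg adjusted p = 0.082 over 17 sums in that muscle). The sum of 6 endothelial markers was 312 to 418 CPM in WT and 287 to 382 in ∆Ig3-MuSK (exact permutation test, p = 0.0292, adjusted p = 0.0924), and that of 8 leukocyte markers 56.3 to 153 and 18.3 to 94.0 CPM (exact permutation test, p = 0.169, adjusted p = 0.319). The sum of 10 neuron and brain markers was 6.07 to 8.78 CPM in WT and 6.25 to 12.3 in ∆Ig3-MuSK (exact permutation test, p = 0.0116, adjusted p = 0.0657). For the Schwann cell and satellite cell markers the ∆Ig3-MuSK means were 1.09-fold and 0.980-fold the WT means (exact permutation test, p = 0.232 and 0.701, adjusted p = 0.394 and 0.745). None of these sums passed after correction. By single genes 3 of the 8 neuron and brain markers tested were called in the soleus, against 0.952% of all genes, and all 3 were higher in ∆Ig3-MuSK: Syt1 (1.79-fold, adjusted p = 0.039), Gfap (1.82-fold, adjusted p = 0.0347) and Gad1 (1.90-fold, adjusted p = 0.0323). No marker of these lists was at 0 in all libraries of a group. Their part in the differences of Runx1, Ncam1 and the other genes was not tested.

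The interaction asks whether the genotype difference in the soleus departs from that in the TA. It was called for 0 of 7 genes and 0 of 20841 genes tested (0%) by edgeR, although 24.9% of all genes had an unadjusted p under 0.05. DESeq2 and limma-voom with quality weights called 1049 and 1352 genes, 0 of the 7 among them in both. Runx1 had the smallest p of the 7 (log2 difference −0.59 ± 0.29, 95% interval −1.16 to −0.03, adjusted p = 0.196), followed by Ncam1 (−0.36 ± 0.19, adjusted p = 0.216). The negative sign means that the ratio of ∆Ig3-MuSK to WT was lower in the soleus than in the TA. The 5 others lay between −0.17 and 0.08. Leaving out WT TA replicate 9 lowered the adjusted value that goes with a given unadjusted one, so more than the Runx1 estimate changed in that fit. The share of all genes passing there is not given, so a pass in it is not shown to be particular to Runx1. Without WT TA replicate 9, the library with the high Runx1 level, the Runx1 interaction was −0.83 and passed (adjusted p = 0.0444).

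Other genes of the denervation program were read in the same way, as counts. Of 18 further genes known to rise on denervation, 17 could be tested between genotypes, and 0 were called in the TA or the soleus. Of all genes 0.0149% and 0.952% were called there. The list's median was 0.08 on the log2 scale for the TA and −0.19 for the soleus. In the soleus 6 of the 17 had an unadjusted p under 0.05, all with estimates below 0, where 10.1% of all genes did. In the TA 3 had such a p with estimates above 0 and 2 below, where 24.1% of all genes had one in either direction. Musk, from which the deletion removed exons, was among those below 0 in both muscles. Rrad, a small GTPase gene that rises in denervated muscle, had the smallest p in the soleus, at −0.97 ± 0.26 (adjusted p = 0.0666). Myog, the myogenin gene, was at −0.28 ± 0.15 in the soleus (adjusted p = 0.339) and −0.26 ± 0.16 in the TA (adjusted p = 0.304). Between the muscles of WT mice 12 of the 18 were higher in the soleus and 3 lower, beside 30.2% and 27.3% of all genes. Among the higher ones were Sln, the sarcolipin gene (39.5-fold higher, adjusted p = 7.58e-22), Ampd3, an AMP deaminase gene (6.13-fold, adjusted p = 4.76e-22), Chrna1, an acetylcholine receptor subunit gene (4.78-fold, adjusted p = 1.2e-17), and Musk (3.56-fold, adjusted p = 3.57e-15). Myog was higher as well (log2 fold change 0.74 ± 0.16, adjusted p = 0.000117), and the median of the list was 0.80 beside 0.02 over all genes. In ∆Ig3-MuSK mice 12 were higher in the soleus and 4 lower, beside 28.5% and 27.6% of all genes. Ampd3 was 4.38-fold higher in their soleus (adjusted p = 1.32e-19).

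**Figure D4:**
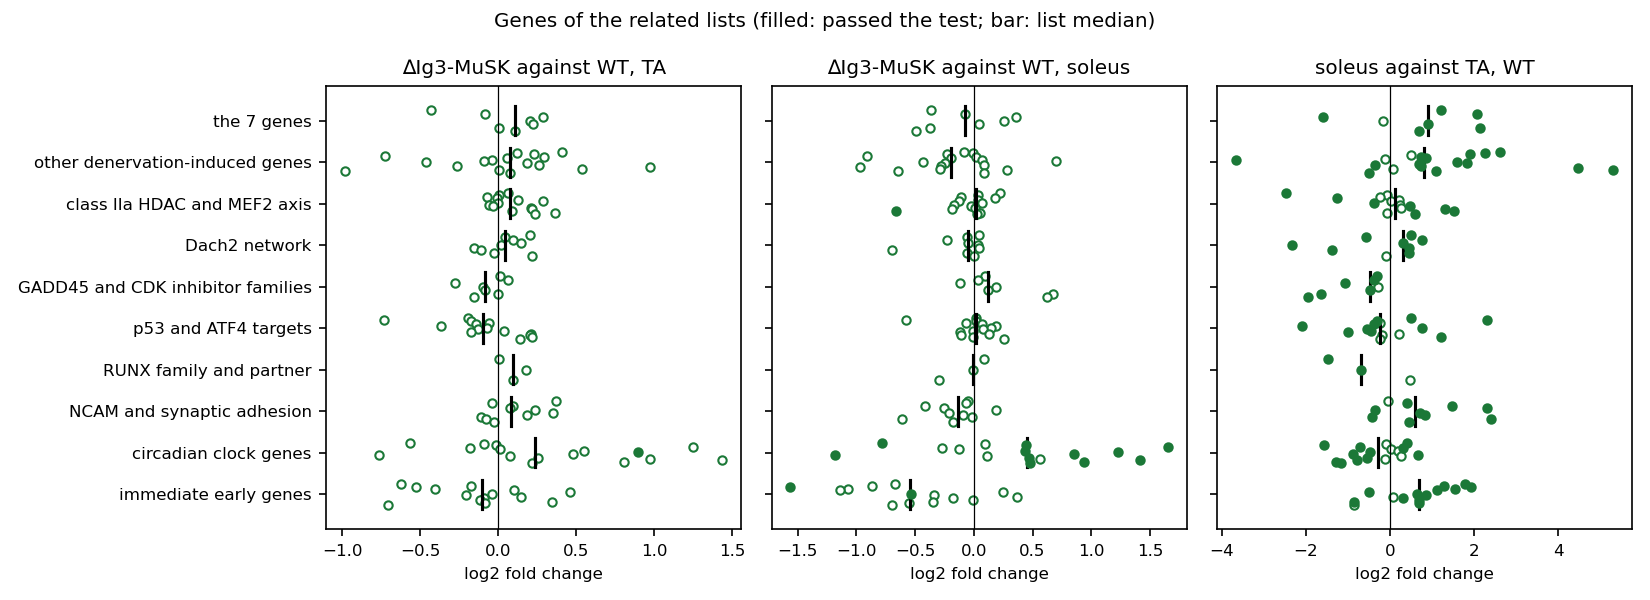
Log2 fold changes of the 7 genes and of the genes of related lists in the TA and soleus genotype comparisons and between the muscles of WT mice, each point a gene, filled where the test was passed, with a bar at the list median. Few points are filled in the genotype panels outside the circadian clock genes, and most are filled between the muscles.

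Among 14 genes of the class IIa histone deacetylase and MEF2 axis, 1 was called between genotypes in the soleus and 0 in the TA. Of all genes 0.952% and 0.0149% were called there. The called gene was Sik1, a kinase gene whose product phosphorylates class IIa histone deacetylases, which was 1.59-fold lower in ∆Ig3-MuSK (log2 fold change −0.67 ± 0.13, adjusted p = 0.026). Between the muscles of WT mice 4 were higher and 3 lower in the soleus, beside 30.2% and 27.3% of all genes. Camk2a and Camk2g, which encode subunits of the calcium-dependent kinase that acts on HDAC4, were 5.58-fold (adjusted p = 5.33e-23) and 2.41-fold lower (adjusted p = 2.15e-21), and Prkd1, another kinase gene of the axis, was 2.46-fold higher (adjusted p = 4.39e-12).

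Dach2 belongs with Dach1 to a network that includes the eyes absent homologs. Of 9 listed genes of this network other than Dach2, 0 were called between genotypes in either muscle, and Dach1, the paralog of Dach2, was at 0.05 ± 0.10 in the soleus (adjusted p = 0.852). Between the muscles of WT mice 5 were higher and 3 lower in the soleus, beside 30.2% and 27.3% of all genes. Eya4, an eyes absent coactivator gene, was 5.00-fold lower (adjusted p = 3.28e-24), and Dach1 was higher by 0.51 ± 0.10 on the log2 scale (adjusted p = 4.37e-05).

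The relatives of Gadd45a and Cdkn1a were counted in the same way. Of 8 other GADD45 and CDK inhibitor genes, 7 were tested, and 6 of them were lower in WT soleus and 0 higher, beside 27.3% and 30.2% of all genes. Gadd45b was 3.12-fold lower (adjusted p = 1.12e-09) and Gadd45g 3.89-fold lower (adjusted p = 9.81e-07), as Gadd45a was, whereas Cdkn1a was higher. Between genotypes 0 of 7 were called, and in the soleus 4 had an unadjusted p under 0.05, all with estimates above 0, where 8.48% of all genes did. Their summed level over the list of 8 was 71.8 to 94.2 CPM in WT soleus and 90.9 to 111 in ∆Ig3-MuSK soleus, 1.21-fold higher in mean with 9 of 9 libraries above the WT median (exact permutation test, 2-sided, p = 0.00037, adjusted p = 0.00314 over 17 sums). Gadd45b was at 1.59-fold the WT level there (log2 fold change 0.67 ± 0.18, adjusted p = 0.0671). In the TA the same sum was 0.964-fold the WT mean (exact permutation test, p = 0.721, adjusted p = 0.817). By this test the clock gene sum also passed in the soleus (adjusted p = 0.00209). Those of the immediate early genes, the RUNX relatives and the further denervation genes did not (adjusted p = 0.095, 0.0924 and 0.751). Among 14 p53 and ATF4 targets, 0 were called between genotypes, beside the same 0.0149% and 0.952% of all genes. Atf3, a stress-induced transcription factor gene, was at −0.57 ± 0.23 in the soleus (adjusted p = 0.182). Of these 14, 4 were higher and 6 lower in WT soleus than in WT TA, beside 30.2% and 27.3% of all genes. Atf3 was 4.92-fold higher (adjusted p = 8.36e-10) and Mdm2, a p53 target, 1.36-fold lower (adjusted p = 7.63e-12).

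Of the 3 RUNX relatives, 2 were lower in WT soleus, where Runx1 was higher (27.3% of all genes were called lower). Cbfb, the gene of the shared DNA-binding partner, was 2.78-fold lower in WT soleus (adjusted p = 9.47e-26) and Runx2 1.62-fold lower (adjusted p = 0.00482). Runx3 was at 1.38-fold the TA level (adjusted p = 0.118), and 0 of the 3 relatives were called between genotypes. Of 11 NCAM relatives and synaptic adhesion genes, 10 were tested, and 7 were higher and 2 lower in WT soleus, beside 30.2% and 27.3% of all genes. Between genotypes 0 were called, beside the same 0.0149% and 0.952% of all genes. St8sia2, which encodes an enzyme that adds polysialic acid to NCAM, was 5.29-fold higher in WT soleus (adjusted p = 8.14e-10), and Colq, which anchors acetylcholinesterase at the synapse, 4.94-fold higher (adjusted p = 2.74e-18). Rapsn, which encodes the receptor-clustering protein rapsyn, was 1.35-fold lower (adjusted p = 1.41e-08).

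Activity-linked and clock genes were also counted between genotypes in the soleus, where 0.952% of all genes were called. Of 14 immediate early genes 2 were called, both lower in ∆Ig3-MuSK: Fosl2 (1.45-fold, adjusted p = 0.0313) and Egr3 (2.95-fold, adjusted p = 0.0459), transcription factor genes induced by activity. Of 16 circadian clock genes 9 were higher and 2 lower, among them Dbp, a clock output factor gene (2.35-fold higher, adjusted p = 0.0135), Per3 (1.91-fold higher, adjusted p = 0.0161) and Npas2 (2.26-fold lower, adjusted p = 0.0164). In the TA 1 clock gene was called, Dbp (1.86-fold higher, adjusted p = 0.0012), where 0.0149% of all genes were called. Time of day is not in the labels, and the part of these programs in the levels of the 7 genes was not tested.

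For each of the 7, the genes with the most similar pattern were found over the 36 libraries as the highest Pearson correlation of log2 CPM after removing the 4 group means, among 20840 genes. Libraries share depth and cell makeup, so these values are descriptions. The nearest to Gadd45a was E230016M11Rik (r = 0.975), and the nearest to Ncam1 was Gm11149 (r = 0.867), each the gene that shares exon bases with it on the opposite strand in these unstranded libraries. Runx1 lay nearest to Col1a1 (r = 0.818), Mmp2 (0.818) and Col1a2 (0.817), collagen and matrix protease genes made by fibroblasts. Dach2 lay nearest to Slc25a20 (0.762), Acadm (0.734) and C1qbp (0.733), genes of mitochondrial proteins. Hdac4 lay nearest to Ankrd11 (0.743), Mia3 (0.739) and Casz1 (0.733), Hdac9 to Pde4b (0.659), Nfatc2 (0.657) and Gm10825 (0.643), and Cdkn1a to Stom (0.716), Gm42793 (0.707) and Spp1 (0.705). Spearman rank correlations with the same genes were lower for Runx1 (0.663 to 0.717) and Hdac4 (0.582 to 0.592). For Dach2 they were 0.755 to 0.768. After Gm11149, Ncam1 lay nearest to Emilin1 (0.773) and Haus8 (0.753), and after E230016M11Rik, Gadd45a lay nearest to Gm6485 (0.640) and Taf8 (0.621). Within the 7, the highest value was between Ncam1 and Runx1 (r = 0.597) and the lowest between Runx1 and Dach2 (r = −0.374), and Hdac4 had r = −0.097 with Dach2 and 0.166 with Hdac9.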

How the data were processed

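The 7 genes and the related lists were chosen with earlier results of these data known, so no list is independent support. Libraries were not stranded. The authors trimmed reads with Trimmomatic, aligned them to mm10 with GSNAP, counted reads per gene with htseq-count and deposited the raw counts in a table for each muscle. The counting mode and annotation release are not given in the sources used here. Symbols came from a GRCm38 annotation (51633 of 51912 IDs), and 0 columns of other samples were present. No pair of libraries among the 153 of a muscle agreed within sampling noise (smallest chi-square per degree of freedom 11.7).

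Counts were tested in R 4.3.3 with edgeR 4.0.16: filterByExpr (minimum count 10, minimum total 15), TMM factors, glmQLFit and glmQLFTest, without covariates, 2-sided. Genotypes were compared within each muscle, and muscles and the interaction in a fit over 36 libraries. Calls needed a Benjamini-Hochberg adjusted p under 0.05 over all genes tested and at least 1.2-fold (adjusted p only for the interaction). Intervals are ±1.96 SE, and p-values measure the spread among the 9 libraries of a group, 1 muscle each. The tests were checked on simulated counts. DESeq2 1.42.0 and limma 3.58.1 were among the alternatives. Named genes are the 7, Musk, from each list the called genes with the smallest adjusted p (at most 4, or the 1 gene with the smallest p where none was called), and the 3 genes most like each of the 7. Myog, Dach1, Gadd45g, Runx3, Syt1, Gfap and Gad1, where named outside this rule, were added after their values were seen. An item that this rule would name is not reported here. The authors' own comparison tables were not used.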

Additional observations from a re-analysis of the deposited data

Results flagged for a closer look

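Across 28 sets of 9 libraries (7 genes in 4 groups), 4 held a library whose gap to the next, divided by the range of the group, exceeded Dixon's 95% critical value for 9 libraries. Chance gives about 1 in 20. Gadd45a in ∆Ig3-MuSK TA replicate 3 was at 66.5 CPM with the next library at 34.1. Runx1 in WT TA replicate 9 was at 4.94 CPM with the next at 2.45, from 367 counts. Cdkn1a in ∆Ig3-MuSK soleus replicate 1 was at 33.3 CPM with the next at 21.8. Hdac4 in WT TA replicate 5, a library that also stood apart on the principal components, was at 21.4 CPM with the next lowest at 30.8.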

How the results depend on the processing

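Of 413 gene-level values under other settings 403 kept their direction and side of the threshold, as did 989 of 1008 with a library left out. The number of the 7 genes called in the soleus rose from 0 to 1 with upper-quartile factors, limma-voom with sample quality weights and the replicate block, a different gene each time (Hdac4, Cdkn1a and Gadd45a), and lay between 0 and 1 with a library left out, as did the interaction. Over all 19439 genes, upper-quartile factors, limma-voom and the replicate block called 191, 653 and 347 in the soleus. The cause of these changes was not tested. The replicate block moved the soleus calls over all genes from 185 to 347 and those in the TA from 3 to 0, and the numbers, whose correlations ran from −0.279 to 0.394 between genotypes within a muscle, did not pair the libraries. Libraries with the same label number in both muscles (8 WT, 8 ∆Ig3-MuSK) correlated at 0.0256 to 0.123 and 0.0324 to 0.284, over 0.1 in 2 and 5 pairs. The best match in the other muscle had the same number for 2 of 8 WT TA and 4 of 8 WT soleus libraries. In ∆Ig3-MuSK it did for 5 of 8 in each muscle. Whether a shared number marks the same animal is not in the labels, and the study's legend gives 1 muscle per animal. If it does, the main muscle and interaction tests treated muscles of the same animal as independent. With the label number as a random block the within-block correlation was 0.127. The main tests did not pair libraries by label number, and blocking on it changed none of the calls of the 7 between muscles. Without the 3 libraries that stood apart, a choice made after seeing the data, the calls over all genes in the soleus fell from 185 to 116, with 0 of the 7. Values near 0 changed sign: Ncam1 in the TA was −0.017 with limma-voom, −0.045 without the 3 libraries, and −0.050 to 0.085 with a library left out. The Dach2 interaction was −0.12 with limma-voom, −0.085 without the 3 libraries, −0.042 with the shared label number as a replicate block and −0.0018 with it as a random effect, and −0.053 to 0.089 with a library left out. The Cdkn1a interaction was −0.073 with limma-voom and −0.057 to 0.16 with a library left out, and Hdac9 in the soleus −0.024 to 0.087. Runx1 had the lowest counts of the 7, 32 to 367 per library.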
